A study of Mus musculus with 9 samples.

Results

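The genes described here encode the secreted growth factors of the bone morphogenetic protein (Bmp), growth and differentiation factor (Gdf), transforming growth factor beta (Tgfb), activin (Inhb) and fibroblast growth factor (Fgf) families. They were chosen by symbol alone from the annotation of the array, with numbered Bmp, Gdf and Fgf genes, Tgfb1 to Tgfb3 and the 4 Inhb subunits Inhba, Inhbb, Inhbc and Inhbe, and only from probe sets that name a single gene. This gave 48 of the 22180 genes measured, 22 of them Fgf genes and 26 from the Tgfb superfamily nomenclature. RNA came from 9 skeletal muscles of male C57BL/6J mice, an inbred laboratory strain, aged 12 weeks and without a stated treatment or altered allele, with 1 GeneChip Mouse Gene 2.0 ST array per muscle. By general anatomy the arrays formed a head group (masseter and digastric, n = 2), a shoulder and forelimb group (trapezius, supraspinatus and triceps, n = 3) and a hindlimb group (soleus, gastrocnemius, tibialis anterior and rectus femoris, n = 4). Replicates of a group are therefore different muscles, p-values rest on the spread between them, and no muscle has a measure of how animals differ. Precision throughout is limited by the 9 arrays.

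Ligands of the Tgfb superfamily are dimers that bring together type I and type II serine/threonine kinase receptors, after which Smad proteins carry the signal to the nucleus. Bmp ligands mostly act through Smad1, Smad5 and Smad9, while Tgfb proteins and activins act through Smad2 and Smad3, and the family sets the balance of growth, matrix deposition and stem cell activation in muscle. Secreted Fgf proteins bind receptor tyrosine kinases together with heparan sulphate or a Klotho co-receptor and act on proliferation and differentiation of muscle precursors. The symbols also cover proteins that are no such ligands. Bmp1 is a metalloproteinase that trims procollagen and activates latent growth factors, and Fgf11, Fgf12, Fgf13 and Fgf14 stay inside the cell, where they bind sodium channels.

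Deposited values are log2 expression levels per probe set. A mean under 4 over the 9 arrays was treated as near background, and since each gene has its own probes, levels were compared between muscles and not between genes. Of the 48 genes, 18 had a mean of 4 or more, or 37.5%, against 47.8% of all genes. These were 10 genes of the Bmp, Gdf, Tgfb and Inhb symbols (Bmp1, Bmp4, Bmp5, Bmp6, Gdf10, Gdf11, Inhba, Tgfb1, Tgfb2 and Tgfb3) and 8 Fgf genes (Fgf1, Fgf2, Fgf6, Fgf11, Fgf13, Fgf17, Fgf18 and Fgf22). Just above that limit were Bmp5 (mean 4.25) and Fgf2 (mean 4.41), and just below it Fgf7 (mean 3.95), Bmp3 and Bmp7 (mean 3.94 for both). The range over the 9 arrays reached 1 log2 unit in 15 of the 48 genes, or 31.2%, against 31.3% of all genes, so that this ligand set varied between muscles about as often as genes in general.

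Fast fibre genes marked all 9 arrays as skeletal muscle, with a mean log2 level of the 7-gene list from 11.23 in soleus to 12.34 in tibialis anterior. The value range differed between arrays. Over all probe sets the SD was 1.919 to 1.957 in gastrocnemius, rectus femoris and triceps, called the narrower arrays below, and 2.033 to 2.077 in the 6 others. None of the 3 narrower arrays came from the head. Values among the 6 wider arrays, 2 per region, are therefore given beside the hindlimb minus head differences of single ligands. For other pathway genes they are given where they differ by over 1.5 times.

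**Figure D1:**
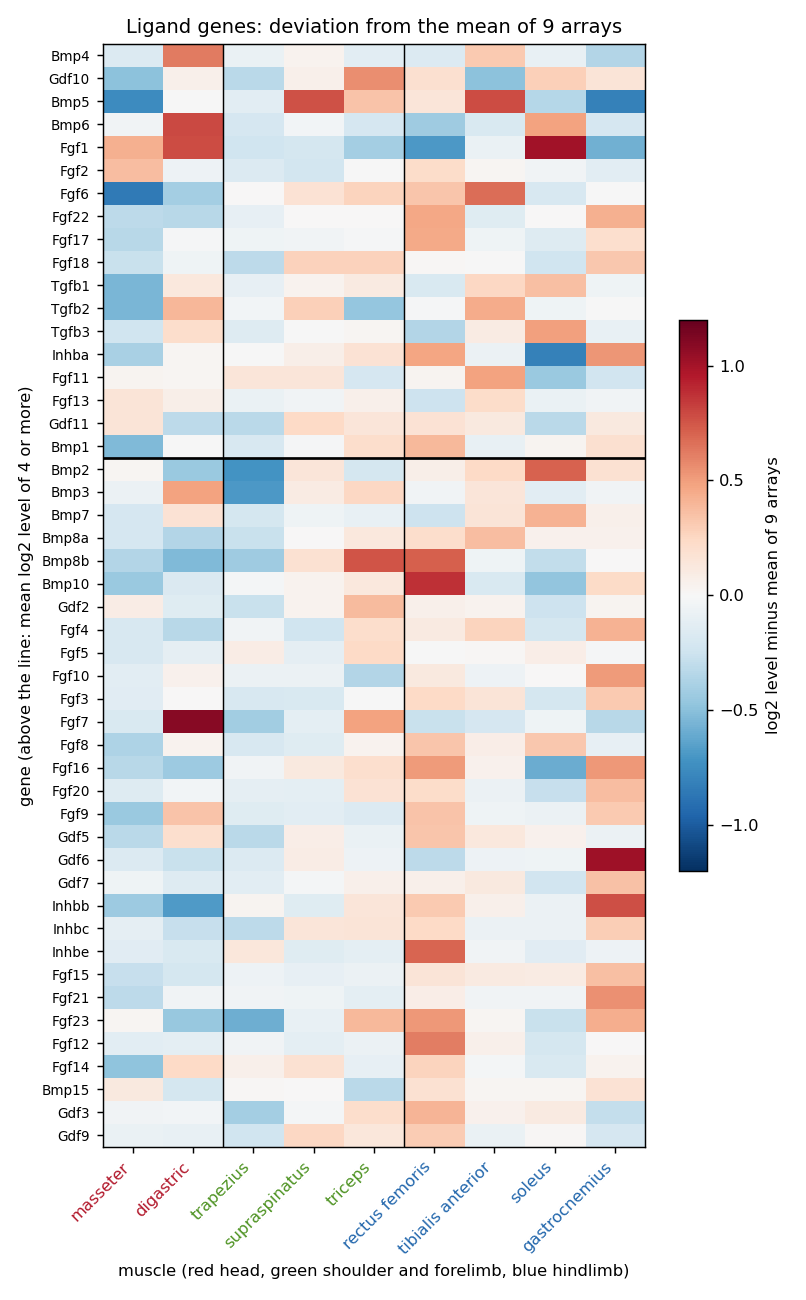
Deviation of the log2 level from the gene's own mean over 9 arrays (colour) for the 48 genes (rows) in 9 muscles (columns); genes above the line have a mean of 4 or more. Fgf6 is below its mean in both head muscles, Fgf1 is above its mean in masseter, digastric and soleus, and 28 of the 30 genes below the line have a higher mean in triceps, rectus femoris and gastrocnemius than in the 6 other muscles.

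The first comparison asked whether hindlimb muscles differ from head muscles in these ligands. No ligand gene passed the limma test adjusted over all genes (0 of 48, against 0.00902% of all genes), with the lowest adjusted p at 0.36. At an unadjusted p under 0.05, 5 ligand genes were higher in hindlimb muscles, or 10.4%, against 5.45% of all genes, and 0 were lower (against 6.49%). The 5 were Inhbb, Fgf6, Fgf15, Bmp8a and Fgf22. All 4 hindlimb arrays lay above both head arrays for 10 ligand genes, or 20.8%, against 11.4% of all genes, and below them for 0, against 9.78%. Of these 10 genes, Fgf6 and Fgf22 had a mean of 4 or more, 2 of 18, or 11.1%, against 9.62% of genes of such means. The other 8 (Bmp2, Bmp8a, Bmp8b, Fgf5, Fgf15, Inhbb, Inhbc and Inhbe) were near background, 8 of 30, or 26.7%, against 13% of genes with a mean under 4. For Fgf15 the other probe set did not separate these regions, with 2.68 in soleus and 2.84 in masseter. Among the 6 wider arrays hindlimb muscles lay above head muscles for 14 ligand genes, or 29.2%, against 17.1% of all genes. They lay below for 0, against 17.7%.

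Fgf6, a growth factor found mainly in the skeletal muscle lineage and studied in muscle regeneration, had the largest hindlimb minus head difference among the 18 genes with a mean of 4 or more (Entrez gene 14177, probe set 17463332). It was at 4.32 in masseter and 4.76 in digastric. It was at 5.17 in trapezius, 5.34 in supraspinatus and 5.43 in triceps. Among hindlimb muscles it was at 5.50 in rectus femoris, 5.84 in tibialis anterior, 4.97 in soleus and 5.16 in gastrocnemius. Both head muscles were thus below all 7 others, the trapezius and the slow soleus included, and the shoulder and hindlimb values overlapped. The mean was 4.54 ± 0.32 (SD, n = 2) in head, 5.31 ± 0.13 (SD, n = 3) in shoulder and forelimb and 5.37 ± 0.38 (SD, n = 4) in hindlimb muscles. The hindlimb minus head difference was 0.83, a 1.78-fold difference in the deposited values (SE 0.24, 95% interval 0.29 to 1.37), and was not called by limma (adjusted p = 0.368). It was 0.87 among the 6 wider arrays. In whole tissue, fewer cells of a type and less RNA per cell cannot be told apart. The mean log2 levels of the slow fibre, myeloid and white adipocyte marker lists were likewise lower in both head muscles than in every other muscle. The summed linear level of the slow fibre list (8 of 8 measured) was 246 to 432 in head, 391 to 1610 in shoulder and forelimb and 287 to 13400 in hindlimb muscles, and its mean log2 level was at most 4.67 in head muscles and at least 4.88 in the others. The myeloid sum (6 of 6 measured, Ptprc and Cd14 with means under 4) was 176 to 251, 308 to 583 and 256 to 411 in the same order. The white adipocyte sum (5 of 6 measured, Lep with a mean under 4) was 86.0 to 94.8, 154 to 806 and 117 to 230. The salivary gland list (5 of 5 measured, each with a mean under 4) went the other way, with a sum of 63.0 to 182 in head, 20.8 to 26.6 in shoulder and forelimb and 18.1 to 21.1 in hindlimb muscles. Within it Klk1 was at 7.28 in masseter and 0.91 in digastric, and Bpifa2 at 3.74 and 5.16. Of the list only Bpifa2 had both head muscles above all others. Amy1 was at 2.94 in masseter, 4.18 in digastric and 3.84 in trapezius, and Smr3a at 1.53, 2.42 and, in triceps, 2.31. Prol1 had a mean of 0.98 in head, 1.27 in shoulder and forelimb and 1.16 in hindlimb muscles. No marker of these lists was at 0, and the part of these cell types and of this gland in the Fgf6 difference, and in the other differences from head muscles below, was not tested.

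Fgf22, a member of the Fgf7 subfamily known as an organiser of synapses, was the other of these 18 genes whose head and limb muscles did not overlap (Entrez gene 67112, probe set 17234948). It was at 5.20 in masseter and 5.18 in digastric. It was at 5.41 in trapezius and 5.51 in both supraspinatus and triceps. In hindlimb muscles it was at 5.97 in rectus femoris, 5.36 in tibialis anterior, 5.51 in soleus and 5.94 in gastrocnemius. The head values lay close together and below all 7 others, and the highest values came from rectus femoris and gastrocnemius, both narrower arrays. The hindlimb minus head difference was 0.50 (SE 0.20, 95% interval 0.07 to 0.94, adjusted p = 0.399 by limma), and 0.24 among the 6 wider arrays.

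The promoters of Fgf6 and Fgf22 are shown because these were the 2 ligand genes with a mean of 4 or more that were below every limb muscle in both head muscles. The RefSeq table (build GRCm38.p6), with windows from 250 bases before to 50 bases after a gene's start, held entries for 33 of the 48 ligand genes. Capitals mark the E-box letters CANNTG, a pattern that matches both strands at the same place. Myogenic factors of the basic helix-loop-helix family can bind some, but not all, sequences of this pattern. The Fgf6 window lies at chr6:127015292-127015591 on the plus strand and the Fgf22 window at chr10:79754859-79755158 on the plus strand.
Fgf6: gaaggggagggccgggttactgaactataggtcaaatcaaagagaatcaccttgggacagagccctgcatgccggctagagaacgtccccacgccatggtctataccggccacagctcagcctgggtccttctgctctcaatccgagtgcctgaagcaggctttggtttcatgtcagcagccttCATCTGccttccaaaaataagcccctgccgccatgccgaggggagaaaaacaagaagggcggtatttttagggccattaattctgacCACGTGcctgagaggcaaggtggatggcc
Fgf22: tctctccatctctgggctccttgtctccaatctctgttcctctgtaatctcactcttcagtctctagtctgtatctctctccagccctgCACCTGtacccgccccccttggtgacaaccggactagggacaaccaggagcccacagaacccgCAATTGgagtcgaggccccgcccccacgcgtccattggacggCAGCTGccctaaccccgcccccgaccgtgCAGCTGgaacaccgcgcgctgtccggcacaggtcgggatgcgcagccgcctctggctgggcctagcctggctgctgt
The Fgf6 window held 2 matches and the Fgf22 window 4. At least 1 match was present in 72.3% of all 32851 windows of the table and in 25 of the 39 windows of ligand genes, or 64.1%. A match is a run of letters and not a known site. In the same gene table Fgf6 is followed by Fgf23 as the next protein-coding gene on chromosome 6. Fgf23, a hormone of phosphate balance made mainly in bone, had a mean of 2.43 and lay between 1.84 and 2.95 on all 9 arrays, near background.

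**Figure D2:**
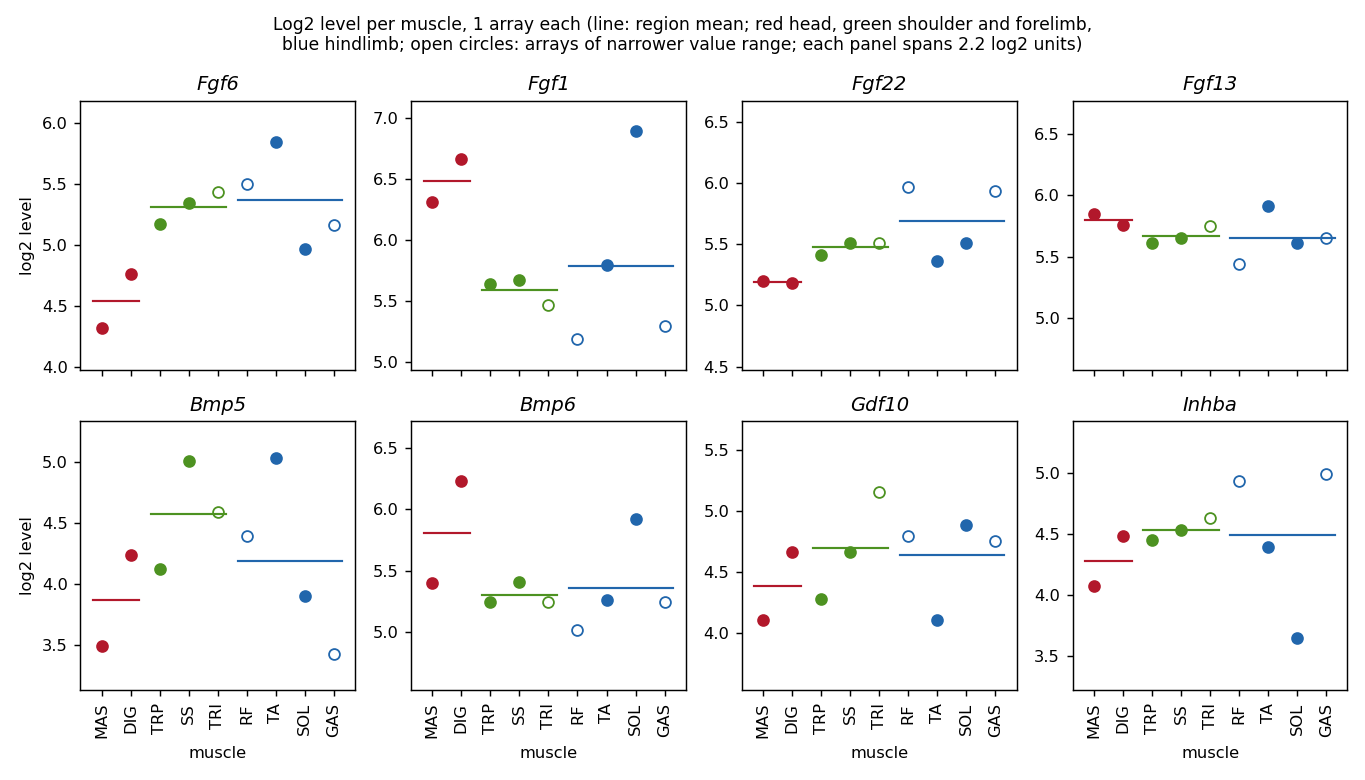
Log2 level (y axis) of 8 ligand genes in each of 9 muscles (x axis, 1 array each: masseter MAS, digastric DIG, trapezius TRP, supraspinatus SS, triceps TRI, rectus femoris RF, tibialis anterior TA, soleus SOL, gastrocnemius GAS), with the region mean as a line and the 3 narrower arrays as open circles. Fgf6 and Fgf22 have both head muscles at the bottom, Fgf1 has masseter, digastric and soleus at the top, and Inhba has soleus at the bottom.

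Fgf1, the acidic Fgf that can bind all Fgf receptors, had the widest range of the 48 genes, 1.70 (Entrez gene 14164, probe set 17353962). It was at 6.31 in masseter and 6.66 in digastric. It was at 5.64 in trapezius, 5.67 in supraspinatus and 5.47 in triceps. In hindlimb muscles it was at 5.19 in rectus femoris, 5.80 in tibialis anterior, 6.89 in soleus and 5.30 in gastrocnemius. Soleus, digastric and masseter were the 3 highest muscles, so that head muscles were above all shoulder and forelimb muscles while soleus kept the hindlimb group from standing apart. The mean was 6.48 ± 0.24 (SD, n = 2) in head, 5.59 ± 0.11 (SD, n = 3) in shoulder and forelimb and 5.79 ± 0.78 (SD, n = 4) in hindlimb muscles. Shoulder and forelimb minus head was -0.89 (SE 0.42, 95% interval -1.81 to 0.03, adjusted p = 0.72 by limma), or -0.83 among the 6 wider arrays. Fgf1 was also the only ligand gene with all 3 narrower arrays below the 6 others, or 2.08% of the 48, against 11.8% of all genes.

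Bmp6, a Bmp that endothelial cells of the liver use to control iron uptake, had the same muscles at the top in part (Entrez gene 12161, probe set 17286682). It was at 5.40 in masseter, 6.23 in digastric, 5.24 in trapezius, 5.41 in supraspinatus and 5.24 in triceps. In hindlimb muscles it was at 5.01 in rectus femoris, 5.26 in tibialis anterior, 5.92 in soleus and 5.24 in gastrocnemius. Digastric and soleus were high, masseter lay within the range of the shoulder muscles, and the regions overlapped. Endothelial markers (5 of 5 measured, none at 0) were high in digastric and soleus, and also in masseter, where Bmp6 was not high. Their summed linear level was 1170 to 1370 in head, 718 to 885 in shoulder and forelimb and 575 to 1390 in hindlimb muscles, and their mean log2 level was 7.52 in masseter, 7.71 in digastric and 7.55 in soleus against 6.35 to 7.21 in the 6 others. The tendon list (6 of 6 measured) and the pericyte and smooth muscle list (5 of 5 measured, Cnn1 with a mean under 4) had the same 2 highest muscles as Bmp6. The tendon mean was 7.76 in soleus, 6.86 in digastric and 4.84 in masseter. The pericyte and smooth muscle mean was 6.96, 6.81 and 6.62 in the same order. The part of the endothelial markers in the Fgf1 and Bmp6 values, and of the other 2 lists in the Bmp6 values, was not tested.

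Among the other Bmp ligands, Bmp5, a relative of Bmp6 and Bmp7, ranged over 1.60 log2 units with no regional order (Entrez gene 12160, probe set 17519538). It was at 3.49 in masseter, 4.24 in digastric, 4.12 in trapezius, 5.01 in supraspinatus and 4.59 in triceps, and at 4.39 in rectus femoris, 5.03 in tibialis anterior, 3.90 in soleus and 3.43 in gastrocnemius. Supraspinatus and tibialis anterior were high, and the lowest muscles, gastrocnemius and masseter, came from different regions. The mean of the cartilage and bone list (5 of 5 measured, none at 0, Acan, Bglap and Ibsp with means under 4) was also highest there. Its mean log2 level was 4.52 in supraspinatus and 4.82 in tibialis anterior against 3.53 to 4.28 in the 7 others. Its summed linear level was 71.2 to 86.8 in head, 71.2 to 144 in shoulder and forelimb and 90.9 to 220 in hindlimb muscles. Ibsp, a bone matrix gene, was at 5.49 in supraspinatus and 6.85 in tibialis anterior and at most 3.77 elsewhere. No other gene of the list had those 2 muscles as its highest. Sox9 was highest in soleus (6.00), Col2a1 in rectus femoris (5.90), Bglap in digastric (3.43) and Acan in supraspinatus (3.91). The part of bone or cartilage in the Bmp5 values was not tested. Bmp4, which shares receptors with Bmp2, was at 5.49 in digastric and from 4.52 to 5.18 in the other muscles. Bmp2 had a mean of 3.70 and was highest in soleus, at 4.41. Bmp7 had a mean of 3.94 and was likewise highest in soleus, at 4.36. Bmp1, the procollagen protease, was lowest in masseter, at 5.82, and highest in rectus femoris, at 6.74. It had all 3 narrower arrays above the 6 others.

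Gdf10, also called Bmp3b and close to Bmp3, was at 4.11 in masseter, 4.67 in digastric, 4.28 in trapezius, 4.67 in supraspinatus and 5.16 in triceps (Entrez gene 14560, probe set 17298731). In hindlimb muscles it was at 4.80 in rectus femoris, 4.11 in tibialis anterior, 4.89 in soleus and 4.76 in gastrocnemius, so that the lowest values were shared by a head and a hindlimb muscle. Gdf2, known as Bmp9 and made mainly by the liver, is the neighbouring protein-coding gene of Gdf10 on chromosome 14 and had a mean of 3.75. Gdf11, the closest relative of myostatin, was near 4.34 in trapezius and soleus and 4.35 in digastric, and from 4.78 to 4.90 in the 6 other muscles. Its levels fell into these groups without regard to region. Its hindlimb minus head difference was 0.10 (SE 0.22, 95% interval -0.40 to 0.60), and -0.02 among the 6 wider arrays.

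The Tgfb ligands drive matrix production and restrain muscle differentiation, and each had overlapping regions. Tgfb1 ran from 4.87 in masseter to 5.78 in soleus, Tgfb2 from 4.44 in masseter to 5.43 in tibialis anterior and Tgfb3 from 6.58 in rectus femoris to 7.43 in soleus. Their hindlimb minus head differences were 0.31 (95% interval -0.19 to 0.80), 0.17 (95% interval -0.47 to 0.80) and 0.05 (95% interval -0.47 to 0.57). The intervals include differences of up to 0.80 log2 units, so that equal levels were not shown. Among the 6 wider arrays the differences were 0.52, 0.27 and 0.30 in the same order. There, both hindlimb arrays lay above both head arrays for Tgfb1, and above both shoulder and forelimb arrays for Tgfb1 and Tgfb3.

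Inhba, the subunit of activin A, was lowest in soleus (Entrez gene 16323, probe set 17285438). It was at 4.07 in masseter, 4.48 in digastric, 4.45 in trapezius, 4.53 in supraspinatus and 4.63 in triceps. In hindlimb muscles it was at 4.93 in rectus femoris, 4.39 in tibialis anterior, 3.65 in soleus and 4.99 in gastrocnemius. All 3 narrower arrays were above the 6 others, and the hindlimb minus head difference was 0.21 over all arrays and -0.25 among the 6 wider ones. Inhbb, the subunit of activin B, had a mean of 3.56, near background. It was at 3.13 in masseter and 2.88 in digastric, from 3.42 to 3.71 in shoulder and forelimb and from 3.49 to 4.34 in hindlimb muscles, so that head muscles were again below all 7 others. The hindlimb minus head difference of Inhbb was 0.83 (SE 0.23, 95% interval 0.31 to 1.35, adjusted p = 0.36 by limma), or 0.55 among the 6 wider arrays. Inhbc and Inhbe, subunits made mainly in liver and neighbours on chromosome 10, had means of 3.29 and 2.10.

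The remaining Fgf genes with a mean of 4 or more had ranges under 1 log2 unit. Fgf13, an intracellular sodium channel partner, had a range of 0.47 (Entrez gene 14168, probe set 17541926). It was at 5.85 in masseter, 5.76 in digastric, 5.61 in trapezius, 5.65 in supraspinatus and 5.75 in triceps, and at 5.44 in rectus femoris, 5.91 in tibialis anterior, 5.61 in soleus and 5.65 in gastrocnemius. The head values lay just above the shoulder and forelimb values, by a mean of 0.14 (shoulder and forelimb minus head -0.14, SE 0.18, adjusted p = 0.874 by limma). Fgf11, its relative, ran from 4.44 in soleus to 5.37 in tibialis anterior. Fgf2, the basic Fgf that stimulates satellite cell division, ran from 4.19 in supraspinatus to 4.78 in masseter. Fgf17 and Fgf18, relatives of Fgf8, had ranges of 0.79 and 0.64. Fgf7, a keratinocyte growth factor made by mesenchymal cells, had a mean of 3.95, yet reached 5.04 in digastric against 3.53 to 4.43 in the other muscles.

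The remaining near-background genes include several with a few higher values. Gdf6, which with Gdf5 and Gdf7 shapes joints and tendons, was at 4.46 in gastrocnemius, a narrower array, and between 3.13 and 3.53 in the 8 other muscles. Gdf5 lay between 3.21 and 3.86 and Gdf7 between 3.69 and 4.27. Bmp8b, a Bmp known from brown fat and germ cells, was at 4.38 in triceps and 4.34 in rectus femoris, both narrower arrays, and between 3.10 and 3.81 elsewhere. Its relative Bmp8a lay between 2.69 and 3.41. The brown adipocyte list (3 of 3 measured, Ucp1 with a mean under 4) had a mean log2 level of 9.75 in trapezius and 5.16 to 7.20 elsewhere. Ucp1 (9.36) and Cidea (9.22) were highest in trapezius, and Cox8b in soleus (11.24). Bmp8b was at 3.20 in trapezius, and the part of brown fat in the shoulder and forelimb values was not tested. Bmp10, a Bmp of the heart, was highest in rectus femoris, a narrower array, at 3.91, and lowest in soleus, at 2.56. Bmp3, which opposes other Bmp proteins, lay between 3.25 and 4.43. Fgf21, a metabolic hormone that stressed muscle can secrete, lay between 2.30 and 3.17, with the highest value in gastrocnemius, a narrower array. Gdf3, Gdf9, Fgf3, Fgf4, Fgf5, Fgf8, Fgf12, Fgf14, Fgf16 and Fgf20, most of them known from embryo, oocyte or brain, had means between 2.68 and 3.72, and none of them was distinguishable from background without detection calls.

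Among the 18 genes with a mean of 4 or more, masseter was the lowest muscle for 6 (Bmp1, Fgf6, Fgf17, Gdf10, Tgfb1 and Tgfb2), or 33.3%, against 12.3% of genes of such means. Masseter was also lowest for the fibroblast and matrix list (6 of 6 measured, none at 0), with a mean log2 level of 8.04 against 8.40 to 9.06 in the 8 other muscles and a summed linear level of 2430 to 3750 in head, 2960 to 4890 in shoulder and forelimb and 3850 to 4890 in hindlimb muscles. The tendon list (6 of 6 measured, none at 0) was at 4.84 in masseter and 4.71 in trapezius and from 6.33 to 7.76 in the 7 others, and the part of either list in the count was not tested. Tibialis anterior was the highest muscle for 5 (Bmp5, Fgf6, Fgf11, Fgf13 and Tgfb2), or 27.8%, against 7.12%. Over all 48 genes, rectus femoris and gastrocnemius, both narrower arrays, were each the highest muscle more often than tibialis anterior. Trapezius was the highest muscle for 0 of the 48 genes, against 7.33% of all genes. Each muscle was measured once, so that these counts describe single arrays.

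**Figure D3:**
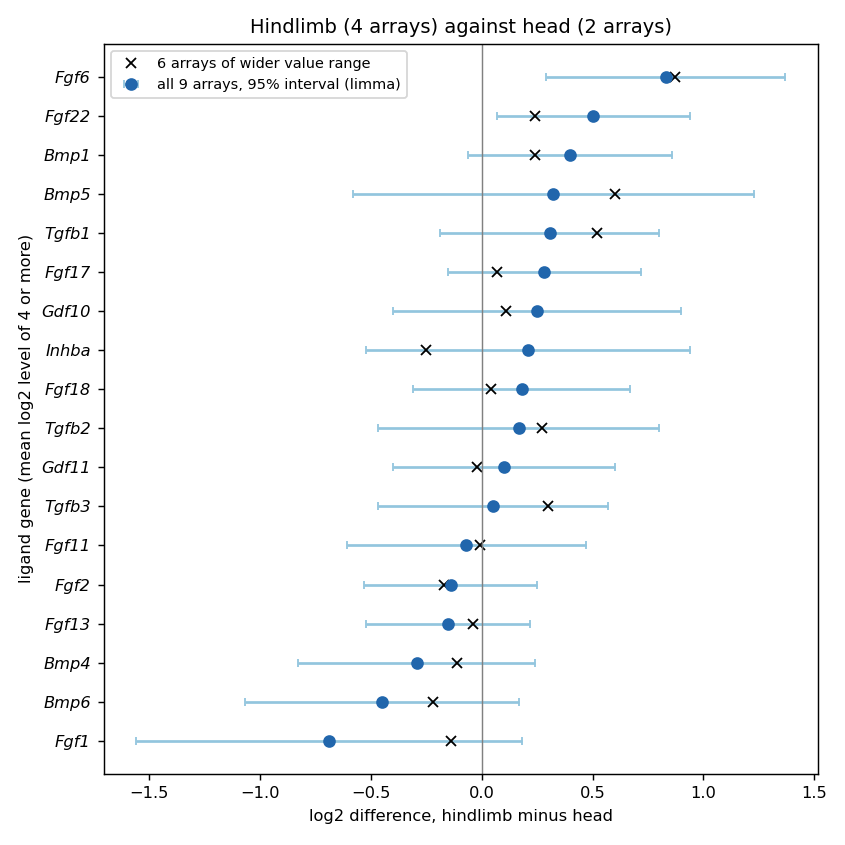
Hindlimb minus head difference of the log2 level (x axis) for the 18 ligand genes with a mean of 4 or more (y axis), with limma's 95% interval (bars) and the difference among the 6 wider arrays (crosses). The intervals of Fgf6 (0.29 to 1.37) and Fgf22 (0.07 to 0.94) lie above 0 before adjustment for multiple testing, and the other 16 include 0.

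The median hindlimb minus head difference over the 48 ligand genes was 0.19, beside 0.04 over all genes. It was 0.17 for the 18 genes with a mean of 4 or more, beside -0.09 for all genes of such means, and 0.22 for the 30 near background, beside 0.11. Positive differences numbered 40 of 48, or 83.3%, against 55% of all genes. Split by level, they numbered 12 of 18, or 66.7%, at a mean of 4 or more, against 4320 of 10601 genes of such means. Near background they numbered 28 of 30, or 93.3%, against 7890 of 11579 genes, a class that was mostly positive in general. Near-background genes moved with the value range of the arrays. Of the 30 near-background ligand genes, 28, or 93.3%, had a higher mean in the 3 narrower than in the 6 wider arrays, against 76.2% of all genes with a mean under 4, and all 3 narrower arrays were above the 6 others for 6 of them (Bmp10, Fgf16, Fgf20, Fgf23, Inhbb and Inhbc), or 20%, against 11.2%. Among the 18 genes with a mean of 4 or more the first count was 9, or 50%, against 38.7%. With 2 of 4 hindlimb arrays, 1 of 3 shoulder and forelimb arrays and no head array narrower, region and value range overlap in part.

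**Figure D4:**
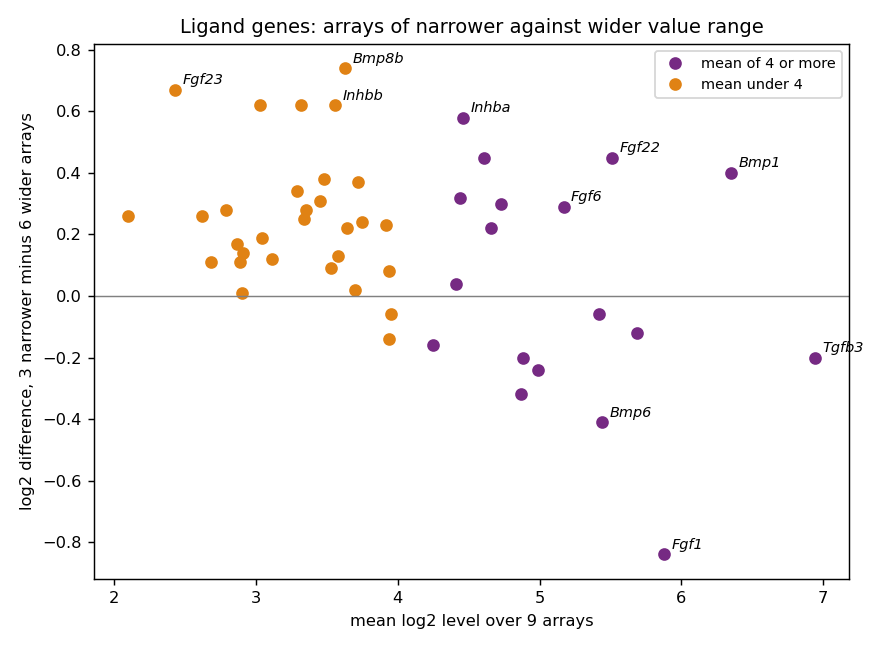
Mean log2 level over 9 arrays (x axis) against the difference between the 3 narrower and 6 wider arrays (y axis) for the 48 ligand genes. Near-background genes (mean under 4) lie above 0 except for Fgf7 (-0.06) and Bmp7 (-0.14), whereas Fgf1 is at -0.84.

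Hindlimb muscles were next set against those of the shoulder and forelimb. None passed the limma test (0 of 48, against 0.00451% of all genes, with the lowest adjusted p at 1.0). At an unadjusted p under 0.05, 1 was higher (Bmp2, 0.56, SE 0.23), or 2.08%, against 1.84% of all genes, and 0 were lower (against 1.81%). All hindlimb arrays lay above all shoulder and forelimb arrays for 4 ligand genes, or 8.33%, against 2.32% of all genes, and below them for 0, against 2.3%. These 4 (Bmp15, Fgf9, Fgf10 and Fgf15) had means under 4, and their differences over all 9 arrays were 0.20, 0.28, 0.31 and 0.26, against 0.02, 0.07, 0.04 and 0.18 among the 6 wider arrays. Bmp15 is best known from the oocyte, Fgf9 and Fgf10 from organ and limb bud development, and Fgf15 as a gut hormone that restrains bile acid synthesis. The other probe set of Fgf10 did not show this order, with 2.31 in tibialis anterior and 3.28 in triceps, nor did that of Fgf15, with 2.68 in soleus and 3.13 in trapezius. Among the 6 wider arrays, where regions of 2 arrays are compared, 13 ligand genes lay higher, or 27.1%, against 15.9% of all genes. There were 3 that lay lower, or 6.25%, against 17.9%. Fgf6 differed by 0.05 (SE 0.22, 95% interval -0.42 to 0.53) between these regions. The median over the 48 genes was 0.12, beside -0.01 over all genes, and 34 differences, or 70.8%, were positive, against 48.2%.

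Shoulder and forelimb muscles were then compared with head muscles, which also served in the first comparison. Again 0 of 48 ligand genes passed the limma test, against 0% of all genes. At an unadjusted p under 0.05, 2 were higher (Fgf6 and Inhbb), or 4.17%, against 3.17% of all genes, and 0 lower (against 3.75%). All shoulder and forelimb arrays were above both head arrays for 8 ligand genes (Bmp10, Fgf5, Fgf6, Fgf12, Fgf15, Fgf16, Fgf22 and Inhbb), or 16.7%, against 15.2% of all genes. They were below both for 2, Fgf1 and Fgf13, or 4.17%, against 14.7%. Of the 8 above, Fgf15 did not keep this order on its other probe set, with 2.79 in supraspinatus and 2.84 in masseter. Fgf6 differed by 0.77 (SE 0.26, 95% interval 0.20 to 1.35, adjusted p = 0.712) and by 0.72 among the 6 wider arrays. Fgf22 differed by 0.29 (SE 0.21, adjusted p = 0.782) and Inhbb by 0.57 (SE 0.25, adjusted p = 0.719). Among the 6 wider arrays, 9 ligand genes lay higher, or 18.8%, against 19.7% of all genes, and 4 lower, or 8.33%, against 19.6%. The median over the 48 genes was 0.11, beside 0.04 over all genes, and 32 differences, or 66.7%, were positive, against 55.5%.

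The other genes of these pathways were taken from fixed lists of receptors, inhibitors, Smads and target genes, with 79 distinct genes measured. None passed the limma test in any of the 3 comparisons, where the lowest adjusted p was 0.36, 1.0 and 0.681 in the order given above. In hindlimb minus head, 54 of the 79 had positive differences, a higher share than the 55% of all genes. All hindlimb arrays lay above both head arrays for 17 of the 79, also a higher share than the 11.4% of all genes. They lay below them for 1 of the 79, a lower share than the 9.78% of all genes. The 3 genes with the largest absolute difference of each list follow, none past the threshold. Among related ligands outside the symbol rule these were Mstn, the muscle growth inhibitor myostatin (-1.81, SE 1.11), Inha, the inhibin subunit that opposes activin (1.18, SE 0.31), and Amh (0.45, SE 0.15). Inha was at 4.49 in masseter and 4.35 in digastric, and from 4.81 to 6.12 in the 7 other muscles, the same split of head and limb muscles as Fgf6. Mstn was between 5.75 and 7.19 in 8 muscles and was low in soleus alone, at 1.56. Without soleus its hindlimb minus head difference was -0.69.

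Of 14 Tgfb family receptors 8 had positive hindlimb minus head differences, with a median of 0.02. The largest were the type I Bmp receptor gene Bmpr1a at -0.86 (SE 0.28), Acvr1c at 0.74 (SE 0.39, mean under 4) and the activin receptor gene Acvr2b at -0.43 (SE 0.23). All 7 Fgf receptors and co-receptors had positive differences, with a median of 0.18. Here the largest were Fgfr2 at 0.82 (SE 0.23), the co-receptor gene Kl at 0.40 (SE 0.17) and Fgfr3 at 0.30 (SE 0.16), each with a mean under 4. Without masseter Acvr1c was at 0.37 and Fgfr3 at 0.17, and among the 6 wider arrays Bmpr1a was at -0.53 and Acvr2b at -0.18. Fgfr1 had a mean of 6.73 and ranged from 6.27 in tibialis anterior to 7.06 in triceps. Fgfr4, a receptor of myogenic cells, ranged from 4.12 in digastric to 4.89 in rectus femoris. Of the 24 secreted inhibitors and modulators measured, 15 had positive differences, with a median of 0.07. The Bmp antagonist gene Chrdl1 was at -0.66 (SE 0.29), and Fgfbp1 and Cer1, both with means under 4, were at 0.60 (SE 0.37) and 0.54 (SE 0.21). Chrdl1 was at -0.41 among the 6 wider arrays, at -0.29 without digastric and at -1.04 without masseter. Fgfbp1 was at 0.02 among the 6 wider arrays and at 0.36 without gastrocnemius.

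Of 8 Smad genes 3 had positive differences, with a median of -0.07, and the largest were Smad9 at 0.56, the common mediator Smad4 at -0.55 and the inhibitory Smad6 at 0.47. For Smad4 all 3 narrower arrays lay below the 6 others, and its difference among the 6 wider arrays was -0.14. Bmp target genes had 8 of 9 positive differences and a median of 0.46, led by Id4 at 0.68, Smad9 at 0.56 and Id1, an inhibitor of basic helix-loop-helix factors, at 0.50. Id1 was at 5.38 in masseter and 5.25 in digastric, and from 5.54 to 6.33 in hindlimb muscles. Its difference was 0.76 among the 6 wider arrays and 0.32 without soleus, and that of Id4 was 0.41 without masseter. Tgfb target genes had 6 of 6 positive differences and a median of 0.35, led by Postn at 1.02 (SE 0.70), Ccn2 at 0.73 (SE 0.61) and Pmepa1 at 0.43 (SE 0.20). Postn was at 1.86 among the 6 wider arrays, 0.32 without masseter, 1.73 without digastric and 0.64 without tibialis anterior. Ccn2 was at -0.09 without masseter, 1.54 without digastric and 0.35 without soleus. Fgf target genes had 7 of 9 positive differences and a median of 0.09, led by Etv4 at 0.40, Spry4 at 0.37 and Etv5 at 0.29. Among the 6 wider arrays Etv4 was at 0.20, Spry4 at 0.72 and Etv5 at -0.13. With 1 array left out Spry4 ran from 0.16 to 0.56 and Etv5 from 0.09 to 0.48. These lists overlap in Smad6, Smad7 and Smad9, and their medians stand beside 0.04 over all genes.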

How the data were processed

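RNA of 9 mouse skeletal muscles was hybridised to 1 array each. Per the submitters' processing notes the authors used GCRMA, a probe-sequence background correction followed by quantile normalization and probe set summary. Its version and the genome build are not given in the sources used here. Values as deposited by the authors run from 0.12 to 13.49, which was taken as a log2 scale. Without detection calls, low values cannot be told from background, and a mean under 4 was treated as near background. Of 41345 probe sets 23521 named 1 gene. Symbols were updated through Entrez identifiers, and the probe set with the highest mean was kept per gene, which left 22180 genes. Gdf1 was only on a probe set of several genes and is not analysed here, nor is Gdf15. Fgf10, Fgf15 and Gdf5 had 2 probe sets each.

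All 9 arrays entered 1 limma fit (limma 3.58.1, R 4.3.3; lmFit and eBayes) with a mean per region, 3 two-sided contrasts, and Benjamini-Hochberg adjustment over all genes at a threshold of 0.05, with 6 residual degrees of freedom and 10.4 after moderation. The procedure was run on simulated data with independent noise per gene and planted differences of 1 or 2 log2 units. Those are larger than any regional difference of a ligand gene here. The simulation therefore does not show how often differences of the ligands' size would be called. Regions do not overlap where every array of one lies above every array of the other. Ligands with a mean of 4 or more were given with all 9 values where they were called or where regions did not overlap. The same held where the range was 1 or more. Ligands below that mean were named where regions did not overlap or an array reached 5. The other ligands below it are given by mean, range or single values. Other pathway genes were named by the 3 largest differences per list; those named for single muscles or for their probe sets were chosen after their values were seen. The genes, lists and tests were chosen with earlier results of these data known. The 18 alternatives were median centring, quantile normalization, a filter on means under 4, the average of probe sets, a robust fit with a variance trend, the groups compared alone, the value range class as a term, only the 6 wider arrays, the trapezius counted with the head muscles and each array left out in turn. The classes split at an SD of 2.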

Additional observations from a re-analysis of the deposited data

Results flagged for a closer look

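Within the 4 hindlimb arrays, 4 of the 48 ligand genes had 1 muscle far from the other 3, by a gap above Dixon's 95% critical value. For 4 values drawn from 1 normal distribution the rule flags about 1 in 20 groups. These arrays are different muscles, the slow soleus among them, so that rate need not hold here. The share over all genes was not computed, so the count is not set against it. Gdf11 was at 4.34 in soleus, with the nearest other muscle at 4.78, and Gdf2 was at 3.51 in soleus, with the nearest at 3.79. Tgfb2 was at 5.43 in tibialis anterior, with the nearest at 4.98. Inhbe was at 2.80 in rectus femoris, with the nearest at 2.06. Gdf2 and Inhbe, with means of 3.75 and 2.10, were near background.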

How the results depend on the processing

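The count of ligand genes past the limma threshold was 0 in all 3 comparisons under each of the 18 alternatives. With 1 array left out, the median ligand difference ran from 0.12 to 0.28 (hindlimb minus head), from 0.03 to 0.19 (hindlimb minus shoulder and forelimb) and from 0.04 to 0.16 (shoulder and forelimb minus head). Over all 18 alternatives the hindlimb minus head median went as low as 0.08, against 0.19 in the main fit, and the other 2 ranges were unchanged. The Fgf6 difference between hindlimb and head muscles ran from 0.61 to 1.05 over the 18 alternatives (adjusted p from 0.146 to 0.828), that of Fgf22 from 0.24 to 0.64 and that of Inhbb from 0.55 to 0.96, Inhbb without a value under the filter on means. Of 31 gene differences followed, 2 changed sign. Etv5 was at -0.07 with the average of its probe sets, -0.06 with the value range class as a term and -0.13 among the 6 wider arrays, and Ccn2 ran from -0.09 to 1.54 with 1 array left out; the cause was not tested. Among the 6 wider arrays, a setting chosen after seeing the data, regions of 2 arrays each do not overlap more often by construction. There, hindlimb lay above shoulder and forelimb muscles for 13 ligand genes, or 27.1%, against 15.9% of all genes. Hindlimb lay below them for 3, or 6.25%, against 17.9%. Shoulder and forelimb lay below head muscles for 4, or 8.33%, against 19.6%. Hindlimb lay above head muscles for 14, or 29.2%, against 17.1%. Signal near background limits 30 of the 48 genes.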
